A study of Mus musculus with 16 samples.

Results

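The small nucleolar RNAs (snoRNAs) described here are those that the mouse genome carries inside Ncl, the gene of nucleolin, a major RNA-binding protein of the nucleolus. They were chosen by position: every counted interval that lies within Ncl on its own strand in the GENCODE M21 annotation of the GRCm38 build and has the gene type snoRNA. There were 3 such intervals, Snord82, Gm24148 and Snora75, and these are all 3 that the annotation places in the gene. The deposited files hold 406 snoRNA intervals among 1885 small RNA intervals in all.

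SnoRNAs guide enzymes to ribosomal RNA: those of the C/D family mark the sites of 2′-O-methylation and those of the H/ACA family the sites of pseudouridylation, and in mammals most are cut out of the introns of protein genes as the introns are removed. Snord82 is a C/D snoRNA whose human namesake guides a 2′-O-methylation of 18S ribosomal RNA. Snora75 carries the name of an H/ACA snoRNA, and Gm24148 is known to the annotation by its gene model number only.

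The study profiled these RNAs in blood cell populations sorted by flow cytometry from the bone marrow of wild-type (WT) mice. Per the labels, the progenitor populations were CLP, CMP, GMP and MEP, which are the usual abbreviations of common lymphoid, common myeloid, granulocyte-monocyte and megakaryocyte-erythroid progenitors, and the mature populations were B, T, Myloid and Erythroid. Each of the 8 populations had 2 libraries, 16 in all, with no treatment other than staining for the sort. The labels used here give no age, sex or strain, and neither the number of mice behind a library nor whether the pair of libraries of a population had separate mice. The p-values below therefore reflect how far libraries spread, and that spread may be technical.

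The 3 snoRNAs sit in separate introns of Ncl, which runs on the minus strand of chromosome 1 from 86344719 to 86359400 and has 14 exons in transcript Ncl-201. Snord82 (ENSMUSG00000064823, chr1:86356261-86356330) is 70 bases long and lies in intron 5, 67 bases before exon 6. Gm24148 (ENSMUSG00000064696, chr1:86352008-86352087) is 80 bases long and lies in intron 11, 514 bases before exon 12. Snora75 (ENSMUSG00000064837, chr1:86351169-86351301) is 133 bases long and lies in intron 12, 133 bases before exon 13. Intron 11 is the longest of these 3 introns at 704 bases, against 177 bases for intron 5 and 331 bases for intron 12.

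**Figure D1:**
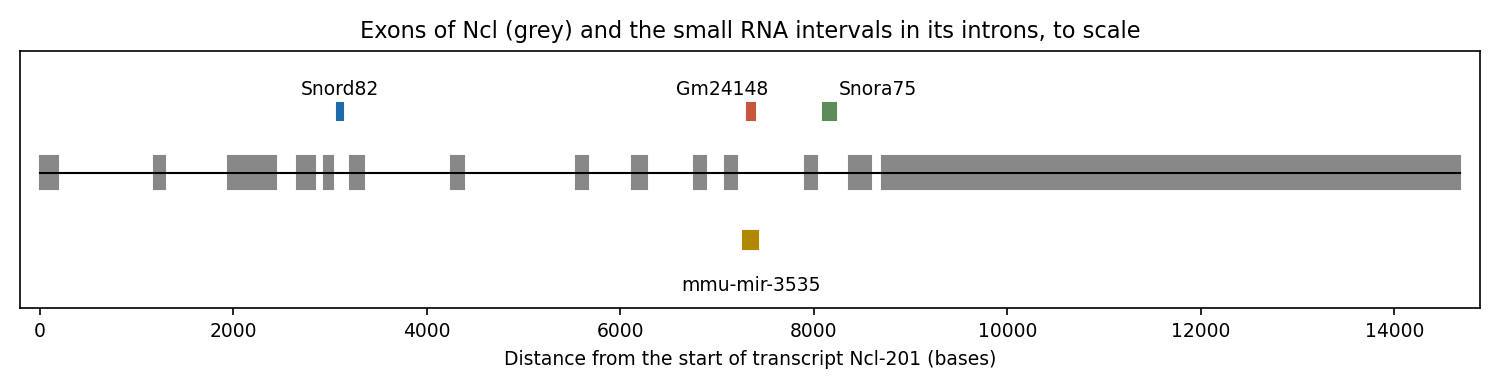
Map of transcript Ncl-201, with distance from its start in bases on the horizontal axis, exons in grey, the 3 snoRNA intervals above them and the miRNA-typed interval mmu-mir-3535 below. Snord82 lies in intron 5, and Gm24148 and Snora75 lie close together in introns 11 and 12.

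The sequences are shown because they place the RNAs in their families; they are read 5′ to 3′ on the strand of Ncl from the GENCODE M21 transcripts (GRCm38). Capitals mark a C box (ATGATGA or GTGATGA) within the first 20 bases and a D box (CTGA) within the last 12 bases, or the ACA that ends 3 bases before the 3′ end.
Snord82: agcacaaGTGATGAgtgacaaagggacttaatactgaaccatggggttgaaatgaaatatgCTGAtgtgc
Gm24148: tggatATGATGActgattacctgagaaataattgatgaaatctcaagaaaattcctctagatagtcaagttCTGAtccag
Snora75: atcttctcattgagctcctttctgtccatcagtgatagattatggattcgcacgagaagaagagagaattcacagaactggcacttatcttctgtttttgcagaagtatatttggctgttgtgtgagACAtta

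Snord82 and Gm24148 each carry the C and D boxes, a combination found in 299 of 1507 annotated mouse snoRNAs (19.8%). Snora75 carries the terminal ACA, found in 276 of the 1507 (18.3%). The boxes were searched on the RNA strand only. The C box begins at base 8 of Snord82 and at base 6 of Gm24148, and the D box at bases 62 and 72. GC content was 41.4% in Snord82, 33.8% in Gm24148 and 39.1% in Snora75.

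A C/D snoRNA recognises its target through a stretch of complementary bases that ends shortly before a D-type box. The members were therefore compared with the opposite strand of the ribosomal RNA annotation CT010467.1 on chromosome 17, where RefSeq places the 18S-related pseudogene Rn18s-rs5, 1849 bases in the annotated transcript. Capitals below mark the longest perfectly complementary run, without G-U pairs.
Snord82: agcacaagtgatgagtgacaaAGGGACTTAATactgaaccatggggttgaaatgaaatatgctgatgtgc
Gm24148: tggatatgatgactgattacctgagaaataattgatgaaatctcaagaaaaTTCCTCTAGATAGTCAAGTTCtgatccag
The run in Snord82 was 11 bases long, from base 22 to base 32, and the next CTGA began at base 34. It pairs with attaagtccct at bases 1682 to 1692 of that strand, and 81 of the 1507 annotated snoRNAs (5.37%) have a run at least as long. The run in Gm24148 was 21 bases long, from base 52 to base 72, where its D box begins, and pairs with gaacttgactatctagaggaa at bases 1779 to 1799. Gm24148 was the only 1 of the 1507 (0.0664%) with a run of that length. The longest run in Snora75 was 8 bases, which 1373 of the 1507 reach. A match is a description of the letters, and methylation of ribosomal RNA was not measured here.

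Some features of the libraries bear on every value. Library totals ranged from 8197458 to 41799906 counts, and 89.0% to 93.2% of the values in a library were even, as if each mate of a pair had been counted. Levels are given in CPM, counts over the library size and scaled to 1e6, after the library sizes were corrected with the trimmed mean method (TMM). Over 157 features of at least 100 CPM, the log2 ratio of library 1 to library 2 had an SD of 0.446 in GMP, 0.523 in MEP and 0.503 in Erythroid, against 0.0469 to 0.1003 in the other 5 populations, and the median absolute deviation was 0.167, 0.0906 and 0.0835 in those 3 populations, against 0.0389 to 0.0859 in the others. The wide SD of MEP and Erythroid thus rests on few features, and a ratio does not say which library of a pair stands apart. Fold changes are also given without library 1 of those 3 populations. That setting leaves each of them 1 library and takes the error from the 5 closer pairs, so its p-values are smaller by construction and are not used as support. Of the cell type markers, which here can only be miRNAs, myeloid Mir223 was highest in Myloid (mean 1046 CPM over library totals, against 118 to 438 elsewhere) and lymphoid Mir150 was highest in T (214 CPM, against 67.3 in B and 10.4 to 43.7 elsewhere). Mir342, the other lymphoid marker, was at 50.2 CPM in T but at 13.3 CPM in B, below the 20.7 CPM of Myloid, so it does not mark B. The 2 erythroid markers, Mir451 and Mir144, summed to 161 CPM in MEP and 147.3 CPM in Erythroid, and also to 142 CPM in CLP, which goes against that label. The 3 progenitor markers Mir99a, Mir126a and Mir125b-1 summed to 42.2 CPM in CMP, against 6.45 to 17.1 CPM in the other 7 populations. They did not set the other progenitors apart from mature cells. CLP had 12.7 CPM, GMP 15.5 CPM and MEP 14.1 CPM, against 17.1 CPM in Myloid, 12.9 CPM in T, 10.4 CPM in Erythroid and 6.45 CPM in B. Erythroid markers were at 10.2 CPM in B, 26.7 CPM in T, 43.9 CPM in CMP, 54.6 CPM in Myloid and 99.5 CPM in GMP, and only Mir125b-1 in B library 2 was at 0.

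All 3 snoRNAs passed the filter on low counts, but their levels differed by orders of magnitude although they share a host gene. Per base of interval, Snord82 averaged 218 CPM, which is rank 10 among 303 tested snoRNA intervals. Gm24148 averaged 2.15 CPM per base (rank 106) and Snora75 0.0282 CPM per base (rank 224), against a median of 0.263 CPM per base over the 303. Snord82 was thus 101-fold above Gm24148 and 7730-fold above Snora75 per base, and it took 1.56% of all counts. The fold and rank of Gm24148 are uncertain, since it lies within another counted interval, described below. Over the whole interval, Snord82 averaged 15253 CPM, against 172 CPM for Gm24148 alone and 382 CPM with that other interval added. Snora75 was scarce: it had 16 to 174 counts per library and 1192 in all.

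Snord82 was abundant in every population and lowest in T. Its level in progenitors was 15613 and 15718 CPM in CLP, 19268 and 19799 CPM in CMP, 15961 and 14466 CPM in GMP, and 15902 and 16894 CPM in MEP. In mature cells it was 18185 and 18284 CPM in B, 9542 and 10274 CPM in T, 13141 and 13474 CPM in Myloid, and 14102 and 13429 CPM in Erythroid. Both CMP libraries stood above all others and both T libraries below all others, and the mean level was 1.97-fold higher in CMP than in T. Population means ± SD (n = 2 each) ran in the order CMP (19533 ± 375), B (18234.5 ± 69.6), MEP (16398 ± 701), CLP (15666 ± 74.1), GMP (15213 ± 1057), Erythroid (13765 ± 475), Myloid (13307 ± 235) and T (9908 ± 518). Of neighbours in this order, the libraries of CLP and GMP overlapped and so did those of Erythroid and Myloid. The place of B depended on the scaling. As a share of library counts, both B libraries (1.54% and 1.47%) lay below every progenitor library.

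Gm24148 followed another order, with a high and a low set of populations that cut across maturity. Its level in progenitors was 104 and 102 CPM in CLP, 304 and 295 CPM in CMP, 86.9 and 95.5 CPM in GMP, and 104 and 108 CPM in MEP. In mature cells it was 229 and 221 CPM in B, 218 and 245 CPM in T, 212 and 200.2 CPM in Myloid, and 108 and 117 CPM in Erythroid. CMP stood above every other population, B, T and Myloid followed, and the libraries of CLP, GMP, MEP and Erythroid all lay below those. Means ± SD (n = 2 each) were 299.6 ± 6.12 CPM in CMP, 231 ± 19.4 in T, 225 ± 5.99 in B, 206 ± 8.43 in Myloid, 112 ± 6.39 in Erythroid, 106 ± 3.26 in MEP, 103 ± 1.52 in CLP and 91.2 ± 6.11 in GMP. The widest step between neighbours was the 1.84-fold one between Myloid and Erythroid, and the pairs T and B, and Erythroid and MEP, overlapped by library. The mean level in CMP was 3.28-fold that in GMP. As a share of library counts, Myloid lay above B and T. In the same libraries the erythroid markers summed to 69.9 to 196 CPM in CLP, GMP, MEP and Erythroid and to 10.1 to 56.5 CPM in CMP, B, T and Myloid, and the part of that difference in the level of Gm24148 was not tested.

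The counts of Gm24148 share their place with another interval. The miRNA-typed interval mmu-mir-3535 (ENSMUSG00000104627, chr1:86351981-86352127, 147 bases) contains it whole, and RefSeq gives both as 1 miRNA gene named Gm24148. The count of mmu-mir-3535 was at least that of Gm24148 in 16 of 16 libraries, at 1.13 to 1.48 times it. A count was odd in 7 libraries for Gm24148 and in 8 for mmu-mir-3535, but their sum was odd in 1 library only. How the authors' counting divided reads between the 2 intervals is not given in the sources used here, so the level of Gm24148 alone is uncertain. Summed, the 2 intervals had 667 CPM in CMP, 229 CPM in CLP, 200.965 CPM in GMP, 256 CPM in MEP, 499.6 CPM in B, 498.5 CPM in T, 451 CPM in Myloid and 255 CPM in Erythroid.

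Snora75 was scarce in every population. Its level in progenitors was 3.80 and 3.78 CPM in CLP, 6.87 and 4.44 CPM in CMP, 6.13 and 3.68 CPM in GMP, and 3.15 and 2.26 CPM in MEP. In mature cells it was 3.79 and 2.66 CPM in B, 1.55 and 2.87 CPM in T, 3.80 and 3.63 CPM in Myloid, and 4.64 and 2.95 CPM in Erythroid. Every pair of neighbours in the order of means overlapped by library. Pooled over the 2 libraries there were 84 read pairs in CMP (95% exact Poisson interval 67.0 to 104) and 28 in T (18.6 to 40.5), intervals that cover counting error only. Reads of Snora75 could also come from near copies: Gm22972 in Dpep2 has 94.7% identity over 132 bases and Gm25038 has 86.0% over 129 bases, so the level is uncertain.

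**Figure D2:**
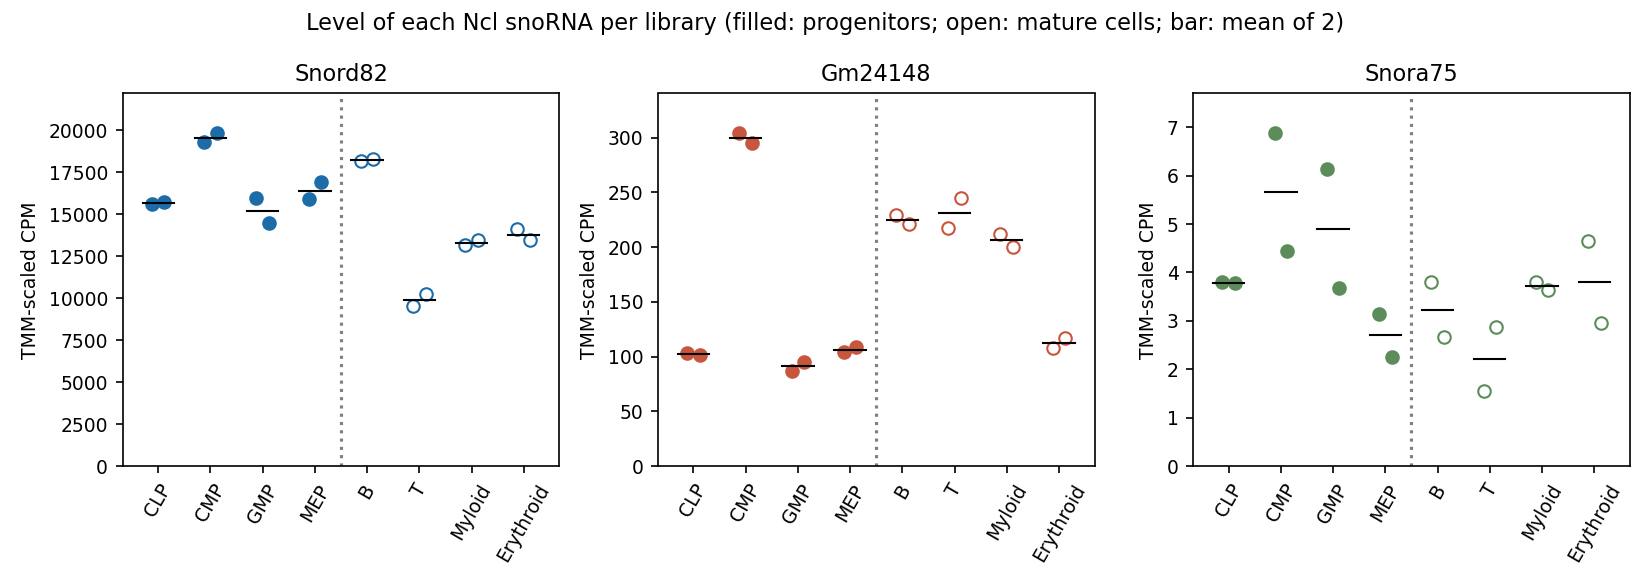
Level of Snord82, Gm24148 and Snora75 in every library, as TMM-scaled CPM on a linear axis that starts at 0 and has its own range in each panel; filled points are libraries of progenitors, open points libraries of mature cells, and bars the mean of 2. Snord82 is highest in CMP and lowest in T, Gm24148 splits into CMP, B, T and Myloid above CLP, GMP, MEP and Erythroid, and the libraries of Snora75 overlap.

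Whether each snoRNA varied among the populations was tested first. By the quasi-likelihood F test of edgeR, adjusted by Benjamini-Hochberg over 749 features, Snord82 (adjusted p = 1.2e-06) and Gm24148 (adjusted p = 1.2e-07) differed among the 8 populations, and Snora75 did not pass (adjusted p = 0.134). The same test called 61.1% of all features. With library totals in place of TMM, Snora75 passed as well (adjusted p = 0.0240). In sorted bulk populations, fewer cells of a type and less RNA per cell cannot be told apart.

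Progenitors were then compared with mature cells, the contrast that the study's design text names. Snord82 was higher in progenitors and Gm24148 lower, 2 snoRNAs of 1 gene moving in opposite directions. Snord82 ranged from 14466 to 19799 CPM with a median of 15932 in the progenitor libraries. In the mature libraries it ranged from 9542 to 18284 CPM with a median of 13451. On this TMM scale the stages overlapped, with B above 3 of the progenitor populations. As a share of library counts they did not overlap. The lowest progenitor library was then at 1.57% (GMP library 2) and the highest mature library at 1.54% (B library 1). With TMM, the log2 fold change of Snord82 was 0.30 ± 0.027 (SE, edgeR adjusted p = 3.0e-06), where 26.7% of all features were called higher. Gm24148 ranged from 86.9 to 304 CPM with a median of 104 in progenitors and from 108 to 245 CPM with a median of 215 in mature cells, and its log2 fold change was -0.50 ± 0.044 (edgeR adjusted p = 2.6e-06), where 23.1% of features were called lower. Snora75 averaged 4.26 CPM in progenitors and 3.24 CPM in mature cells (log2 fold change 0.36 ± 0.19, edgeR adjusted p = 0.136). Without library 1 of GMP, MEP and Erythroid the fold changes were 0.31, -0.49 and 0.28. With library totals, which moved the median of all features by 0.23, they were 0.53, -0.27 and 0.60. Of the progenitor populations, only CMP had mean progenitor markers above those of every mature population, and the part of the markers was not tested.

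These stage differences rest on the spread between libraries. With the 4 progenitor populations set against the 4 mature populations as the units, neither passed: the log2 fold change was 0.21 for Snord82 (edgeR adjusted p = 0.587) and -0.46 for Gm24148 (adjusted p = 0.538), and 21 features were called in place of 373. CMP, with the highest Gm24148 level, ran against the lower progenitor mean of Gm24148. With CMP left out of the progenitor mean, a setting chosen after the values were seen, the Gm24148 value was larger. It was -0.90 ± 0.048 (edgeR adjusted p = 8.6e-08, 22.7% of features called lower). Snord82 was then at 0.22 ± 0.029 (edgeR adjusted p = 5.8e-05, 27.9% called higher).

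Within the lymphoid branch, CLP was compared with B and T. Gm24148 was lower in CLP, at 102 and 104 CPM against 218 to 245 CPM in B and T, with no overlap. The log2 fold change was -1.15 ± 0.080 (edgeR adjusted p = 6.0e-07), where 18% of all features were called lower. It was -1.09 without library 1 of GMP, MEP and Erythroid and -0.70 with library totals, which moved the median of all features by 0.45. Snord82 was on average higher in CLP (0.22 ± 0.046, edgeR adjusted p = 0.0024, 25.2% of features called higher). In TMM-scaled CPM its CLP libraries lay between those of T and B rather than above both. With library totals the fold change was 0.67. On that scale the CLP libraries (1.72% and 1.73% of counts) lay above those of B (1.54% and 1.47%) and T (0.774% and 0.786%). With another library scaling (relative log expression, RLE) that call was lost, at 0.19, and it was also lost without CLP library 1 (0.14), B library 1 (0.17) or T library 2 (0.15). The erythroid markers were at 137 and 148 CPM in CLP, against 10.1 and 10.2 CPM in B and 24.5 and 28.9 CPM in T, and their part in these differences was not tested. Snora75 had a log2 fold change of 0.49 ± 0.32 (edgeR adjusted p = 0.248).

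Within the granulocyte-monocyte branch the picture for Gm24148 was alike. It was lower in GMP, at 86.9 and 95.5 CPM, against 212 and 200.2 CPM in Myloid. The log2 fold change was -1.18 ± 0.089 (edgeR adjusted p = 1.1e-05), where 15.5% of all features were called lower, and -1.15 without library 1 of GMP, MEP and Erythroid. Snord82 was higher in both GMP libraries than in both Myloid libraries, by 0.19 ± 0.053 (edgeR adjusted p = 0.0183, 16.3% of features called higher). That call was lost when any 1 of 9 of the 16 libraries was left out, with GMP library 1 giving the smallest value, 0.08. It was also lost in 7 of the 10 other settings tried, among them snoRNA and scaRNA intervals alone, at 0.07. Myeloid Mir223 was at 278 and 460 CPM in GMP, against 1028 and 1064 CPM in Myloid, and erythroid markers were at 69.9 and 129 CPM in GMP, against 52.7 and 56.5 CPM in Myloid. Their part was not tested. Snora75 was at 0.40 ± 0.37 (edgeR adjusted p = 0.454) and at -0.05 without GMP library 1.

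In the erythroid branch Gm24148 showed no such step. It had 104 and 108 CPM in MEP, against 108 and 117 CPM in Erythroid (log2 fold change -0.08 ± 0.088, edgeR adjusted p = 0.648). The erythroid markers overlapped by library, at 196 and 126 CPM in MEP against 110 and 184 CPM in Erythroid. Mir223 was at 323 and 155 CPM in MEP, against 286 and 590 CPM in Erythroid. Their part was not tested. Snord82 was higher in MEP, at 15902 and 16894 CPM, against 14102 and 13429 CPM in Erythroid, with no overlap. Its log2 fold change was 0.25 ± 0.053 (edgeR adjusted p = 0.0110), in a comparison that called 5.47% of all features higher, and 0.35 between the lone libraries left without library 1 of GMP, MEP and Erythroid. In that remaining pair Mir223 was at 155 CPM in MEP, against 590 CPM in Erythroid, and the lymphoid markers summed to 16.5 CPM, against 47.2 CPM. It no longer passed with RLE scaling (0.23) or when any 1 of 11 of the 16 libraries was left out, with MEP library 2 giving the smallest value, 0.15. Snora75 was at -0.48 ± 0.38 (edgeR adjusted p = 0.516).

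The difference between branches was itself tested for Gm24148, after the values had been seen. The progenitor-to-mature fold change of the lymphoid branch was lower than that of the erythroid branch by 1.07 on the log2 scale (-1.07 ± 0.12, edgeR adjusted p = 6.4e-05, 9.48% of features called lower). That of the granulocyte-monocyte branch was lower than the erythroid one by a like amount (-1.10 ± 0.12, edgeR adjusted p = 0.00040, 3.6% called lower). The lymphoid and granulocyte-monocyte values did not differ detectably (0.03 ± 0.12, edgeR adjusted p = 0.930, in a test that called 17.9% of features either way). With library totals that difference passed, at 0.57 (edgeR adjusted p = 0.0038), where the median of all features moved by 0.54.

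Among mature cells, B and T were compared with Myloid and Erythroid. Gm24148 was higher in B and T, at 218 to 245 CPM, against 200.2 and 212 CPM in Myloid and 108 and 117 CPM in Erythroid. The log2 fold change was 0.58 ± 0.062 (edgeR adjusted p = 2.0e-05), where 11.1% of all features were called higher, and 0.57 without library 1 of GMP, MEP and Erythroid. With library totals, which moved the median of all features by -0.39, it was 0.19 (edgeR adjusted p = 0.0279). On that scale B and T were not above Myloid. The share of library counts was 0.0244% and 0.0225% in Myloid, against 0.0194% and 0.0178% in B and 0.0177% and 0.0188% in T. Erythroid was below these, at 0.0104% and 0.0117%. The erythroid markers summed to 10.1 to 28.9 CPM in B and T, against 110 and 184 CPM in Erythroid and 52.7 and 56.5 CPM in Myloid, Mir223 was at 117 to 256 CPM in B and T against 1028 and 1064 CPM in Myloid, and their part was not tested. Snord82 averaged nearly the same in both sets (-0.01 ± 0.038, edgeR adjusted p = 0.863), since B lay above and T below all 4 Myloid and Erythroid libraries. Its sign depended on the scaling, at 0.17 with RLE and -0.40 with library totals (edgeR adjusted p = 3.5e-08). With totals, B library 2 (1.47% of counts) lay below both Myloid libraries (1.51% in each). Snora75 was at -0.47 ± 0.27 (edgeR adjusted p = 0.204).

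The extremes were tested in a pair of contrasts chosen after the values were seen, so they describe these libraries. Snord82 was lower in T than in B by 0.88 ± 0.054 on the log2 scale (fold change -0.88, edgeR adjusted p = 2.0e-06), where 18.7% of all features were called lower. Lymphoid markers differed as well, at 263 and 266 CPM in T against 74.2 and 87.0 CPM in B, and their part was not tested. Gm24148 did not differ detectably between T and B (0.04 ± 0.088, adjusted p = 0.798).

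Against the mean of CLP, GMP and MEP, CMP was higher for Gm24148 by 1.59 ± 0.067 on the log2 scale (edgeR adjusted p = 3.3e-08) and for Snord82 by 0.31 ± 0.043 (edgeR adjusted p = 0.00018), where 16.7% of all features were called higher. Snora75 was at 0.59 ± 0.30 (edgeR adjusted p = 0.159) and at 0.77 without library 1 of GMP, MEP and Erythroid. The progenitor markers were highest in CMP as well, at 41.5 and 42.9 CPM against 7.50 to 22.6 CPM in CLP, GMP and MEP, and their part was not tested. The Snord82 difference fell just short without CMP library 1 (0.31, adjusted p = 0.0520).

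**Figure D3:**
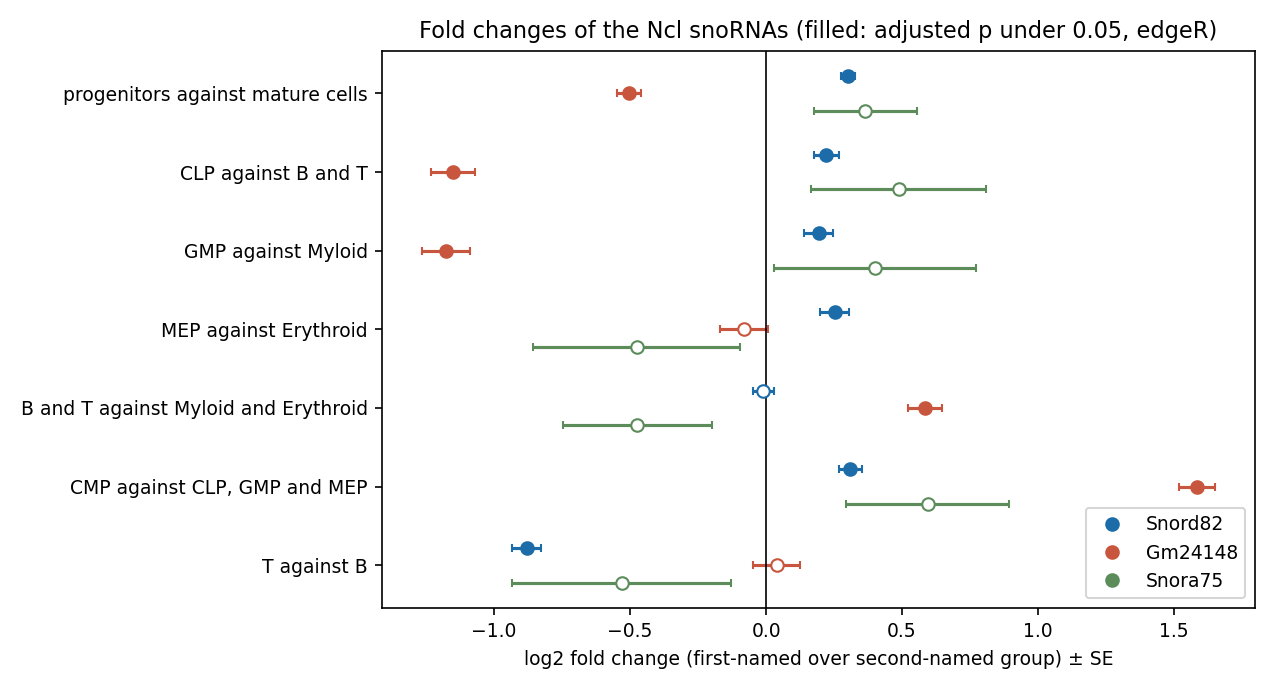
Log2 fold change of each Ncl snoRNA (horizontal axis, first-named over second-named group) in 7 comparisons, with error bars of 1 SE and filled points where the edgeR adjusted p is under 0.05. Gm24148 lies between -1.18 and 1.59, Snord82 between -0.88 and 0.31, and no point of Snora75 is filled.

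All 3 RNAs lie in introns of 1 gene, and their ratio within a library depends on the library scaling only through the 0.5 CPM added to each level. Snord82 over Gm24148 was 152 in CLP, 65.1 in CMP, 166 in GMP, 154 in MEP, 80.8 in B, 42.8 in T, 64.4 in Myloid and 122 in Erythroid. The ratio was therefore far from constant, with GMP highest by mean and T lowest in both libraries. The place of GMP rests on library 1, at 183. GMP library 2, at 151, lay below both MEP libraries (152 and 155). On the log2 scale it averaged 6.98 ± 0.64 in the 4 progenitor populations and 6.17 ± 0.63 in the 4 mature populations (SD, n = 4 each), a difference of 0.80 with a two-sided exact permutation p of 0.0857 (0.257 adjusted over the 3 ratios). CMP fell among the mature cells and Erythroid nearer to the progenitors. The size of this ratio is uncertain, as is the level of Gm24148 alone. With mmu-mir-3535 added to Gm24148, its stage difference was 0.77. The ratio of Snord82 to Snora75 differed by -0.03 (exact permutation p = 0.886; -0.08 on raw counts) and that of Gm24148 to Snora75 by -0.83 (exact permutation p = 0.171, adjusted 0.257). The smallest p this test of 4 against 4 can give is 0.0286.

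**Figure D4:**
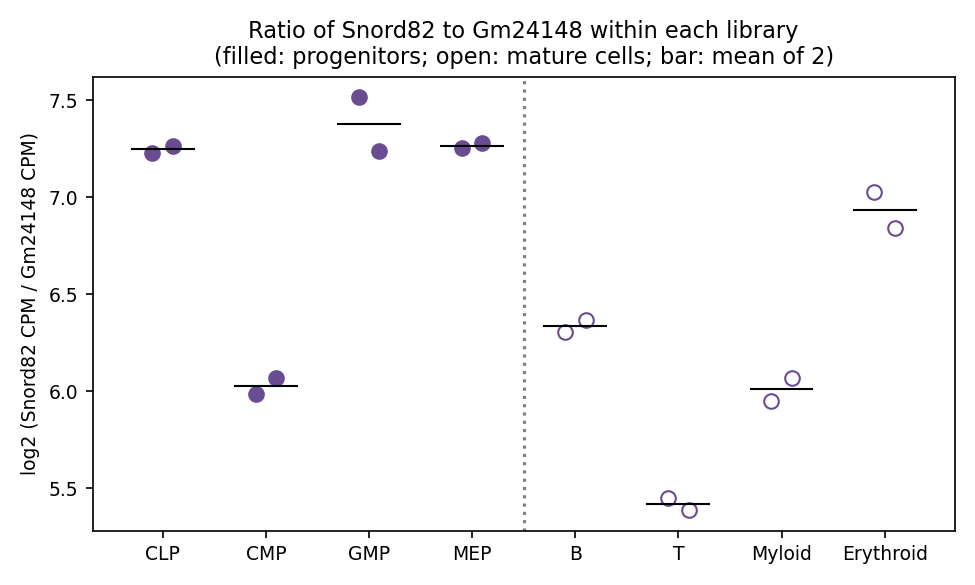
Ratio of Snord82 to Gm24148 within each library on the log2 scale (vertical axis, not starting at 0), with filled points for progenitors, open points for mature cells and bars for the mean of 2. GMP, MEP and CLP lie highest and T lowest, and CMP lies among the mature cells.

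Across the 8 population means, which share libraries and scaling, the Pearson correlation of log2 levels was 0.02 between Snord82 and Gm24148 (Spearman 0.12), 0.61 between Snord82 and Snora75 (Spearman 0.36) and -0.01 between Gm24148 and Snora75 (Spearman -0.14). By the same measure, taken on log2(CPM + 0.5), the snoRNAs outside Ncl most like Snord82 were Gm23008 in Ppan (0.93), Gm23212 in Gas5 (0.90) and Snord19 in Gnl3 (0.86), each highest in CMP and lowest in T. Gas5 is a noncoding host of many snoRNAs, and Ppan and Gnl3 encode nucleolar proteins. Those most like Gm24148 were Snord21 in Rpl5, a ribosomal protein gene (0.90), Snord88c (0.88) and Snord118, the U8 snoRNA of ribosomal RNA processing (0.84). Snord21 and Snord118 were highest in B, unlike Gm24148, and Snord88c in CMP. Snord21 was lowest in MEP and the others in GMP. Snord88c was low, with population means of 3.46 to 15.6 CPM. Those most like Snora75 were Gm24539 in Zfp808 (0.91), Gm24029 in Eif4a1 (0.90) and Snord1b (0.83), but Snora75 and Gm24539 rest on few counts.

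A pair of wider lists set these changes in context. Of 30 C/D snoRNA names whose human namesakes guide methylation of 18S ribosomal RNA, 19 are among the intervals, and the 18 outside Ncl were all tested. Between progenitors and mature cells 7 of the 18 were higher and 8 lower in progenitors, with a median log2 fold change of 0.01, against 86 higher and 86 lower of 303 snoRNAs (median 0.04) and 200 higher and 173 lower of 749 features (median 0.07). The extremes were Snord70 in Nop58 (0.67 ± 0.041, edgeR adjusted p = 2.6e-07) and Snord57 in Nop56 (-0.61 ± 0.021, edgeR adjusted p = 2.3e-09). Of 13 tested snoRNAs in other nucleolar protein genes (Nop56, Nop58, Gnl3 and Dkc1), 7 were higher and 2 lower, with a median of 0.25, and Gnl3 held members of both signs, Gm24916 (0.82 ± 0.043) and Snord69 (-0.64 ± 0.037). Called fold changes of opposite sign within 1 host gene, as of Snord82 and Gm24148 in Ncl, were thus also measured in Gnl3. Nop56 held them too, with Gm23187 (0.85 ± 0.050, edgeR adjusted p = 1.5e-07) and Snord57. All these calls rest on the spread between libraries.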

How the data were processed

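Small RNA was sequenced from 16 libraries of 8 sorted populations. Per the labels' protocols, Trizol RNA went into a small RNA kit, was size-selected on a gel for snoRNA inserts and was sequenced on a NovaSeq instrument. Trimmomatic 0.38, Bowtie2 2.3.4.1 and GRCm38 are named, per the submitters' processing notes; the counting program, its annotation and its use of strand are not given in the sources used here. The authors deposited 1 raw read count for each interval and library, not normalized, and an interval missing from a library was taken as 0. Counting on an intron cannot separate a snoRNA from precursor or fragment reads, and gel selection by length can change levels between snoRNAs of different lengths.

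Intervals were matched by coordinates to GENCODE M21. Features were filtered with filterByExpr (minimum count 10), which left 749, scaled by TMM (factors 0.765 to 1.17) and tested in edgeR 4.0.16 (R 4.3.3) with 1 mean per population and 8 residual degrees of freedom. Benjamini-Hochberg adjustment of p-values ran over all 749 features, and "called", "higher" and "lower" refer to an adjusted p under 0.05. The SE is the log2 fold change over the square root of F. Ratios used CPM plus 0.5 and the exact permutation test in SciPy 1.17.1. Similar copies were found with blastn 2.17.0 (e-value up to 1e-05). On simulated data with 200 changed features, the procedure recovered 147 and made 4 false calls, with 669 features tested. Alternatives were other scalings, DESeq2 1.42.0, other filters, read pairs, a replicate block, libraries left out and populations as units.

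The named snoRNAs are the members and, for each, the 3 most correlated snoRNA intervals outside Ncl, with the 2 extremes of the 18S list. Gm24916, Snord69 and Gm23187 were picked after their values were seen. Members, lists and comparisons were chosen with earlier results of these data known.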

Additional observations from a re-analysis of the deposited data

Results flagged for a closer look

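The fold change of Gm24148 between progenitor and mature cells differed between branches, by a test of the difference itself that was added after the values were seen. CLP against B and T minus MEP against Erythroid gave -1.07 on the log2 scale (-1.15 in the lymphoid branch, -0.08 in the erythroid branch; edgeR adjusted p = 6.4e-05). GMP against Myloid minus MEP against Erythroid gave -1.10 (-1.18 in the granulocyte-monocyte branch; edgeR adjusted p = 0.00040). Leaving out any 1 of the 16 libraries kept both, at -1.11 to -0.90 and at -1.15 to -0.96. With the counts of mmu-mir-3535 added they were -1.13 and -1.17, and with library totals -0.68 and -1.25. The erythroid markers overlapped by library between MEP and Erythroid, and the part of the markers in these differences was not tested.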

How the results depend on the processing

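The among-population differences of Snord82 and Gm24148 and the called differences of Gm24148 kept direction and call under the alternatives run, except that Gm24148 failed with populations as units (-0.46, adjusted p = 0.538), as did Snord82 (0.21, adjusted p = 0.587; 21 features called, against 373); library totals moved several sizes over 1.5 times. Snord82 within branches was less stable. In CLP against B and T it fell short with RLE and with DESeq2 (0.19 in each, adjusted p = 0.128 and 0.177). In GMP against Myloid it fell short with RLE (0.23), DESeq2 (0.23), snoRNA and scaRNA intervals alone (0.0748), no filter (0.21), a filter of 10 CPM in 2 libraries (0.25, adjusted p = 0.0512), read pairs (0.16) and without library 1 of GMP, MEP and Erythroid (0.0834). In MEP against Erythroid it fell short with RLE (0.23), DESeq2 (0.23), no filter (0.24) and the 10 CPM filter (0.21). In B and T against Myloid and Erythroid its value of -0.01 changed sign with RLE and DESeq2 (0.17 in each), no filter (0.0068), the 10 CPM filter (0.0122), read pairs (0.0272) and without those 3 libraries (0.021), and passed with library totals (-0.40). The cause was not tested.

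Beyond the shifts given above, library totals moved the median of all features by 0.12 in CMP against the other progenitors; RLE moved B and T against Myloid and Erythroid by 0.18, and snoRNA intervals alone shifted GMP against Myloid by -0.12 and T against B by 0.20. With totals, Snora75 passed between stages (0.60, adjusted p = 0.0197), in CLP against B and T (0.94), in B and T against Myloid and Erythroid (-0.86) and among populations (adjusted p = 0.0240). Snora75 in GMP against Myloid was -0.0462 without the 3 libraries, and could not be tested under the 10 CPM filter. Gm24148 in MEP against Erythroid was 0.0052 once summed with mmu-mir-3535. Its lymphoid minus granulocyte-monocyte difference of 0.03 became -0.0324 with RLE, -0.0338 with DESeq2, -0.0018 with the 10 CPM filter and 0.57 with totals (adjusted p = 0.0038). The Snord82 to Snora75 ratio turned to 0.14 with a pseudocount of 5 CPM and to 0.0334 without the 3 libraries.

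The split of higher to lower calls was 200 to 173 between stages (309 to 107 with totals), 189 to 135 in CLP against B and T (312 to 59), 41 to 33 in MEP against Erythroid (69 to 29), 83 to 206 in B and T against Myloid and Erythroid (32 to 364 with totals, 112 to 139 with RLE, 78 to 70 on snoRNA intervals alone), 125 to 125 in CMP against the other progenitors (157 to 97) and 71 to 140 in T against B (63 to 54 on snoRNA intervals alone). On snoRNA intervals alone, where 303 were tested, 188 were called between stages, 173 in CLP against B and T, 120 in GMP against Myloid, 148 in B and T against Myloid and Erythroid and 227 among populations, against 373, 324, 238, 289 and 458 of 749. MEP against Erythroid called 74 features, and 39 with RLE, 49 with no filter and 235 without the 3 libraries, where the error comes from the 5 closer pairs.

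Leaving out each library in turn, with the lone library of that population assumed to vary like the others, Snord82 ranged over 0.21 to 0.34 between stages, 0.14 to 0.30 in CLP against B and T, 0.0832 to 0.35 in GMP against Myloid (call lost without either library of CLP, B or T, or without library 1 of CMP, GMP or Myloid), 0.15 to 0.31 in MEP against Erythroid (call lost without either library of CLP, B, T or Erythroid, library 1 of CMP or Myloid, or library 2 of MEP), -0.0317 to 0.16 in B and T against Myloid and Erythroid (above 0 without library 1 of CLP, CMP or Erythroid, either library of B, or library 2 of T or Myloid), and -1.02 to -0.80 in T against B. Gm24148 ranged over -0.60 to -0.47, -1.26 to -1.07, -1.20 to -1.09, -0.17 to -0.03 and 0.57 to 0.76 in the first 5 of these, and Snora75 over -0.0488 to 0.81 in GMP against Myloid (lowest without GMP library 1), -0.77 to -0.10 in MEP against Erythroid and 0.25 to 0.90 in CMP against the other progenitors. The Snord82 to Snora75 ratio ranged over -0.11 to 0.0466 and the lymphoid minus granulocyte-monocyte difference over -0.0597 to 0.0763. Counts of called features ranged over 322 to 392 between stages, 196 to 347 in CLP against B and T, 137 to 252 in GMP against Myloid, 30 to 81 in MEP against Erythroid, 212 to 307 in B and T against Myloid and Erythroid, 389 to 475 among populations, 108 to 269 in CMP against the other progenitors, 120 to 232 in T against B and 22 to 94 in the granulocyte-monocyte minus erythroid difference, which called 69, and 28 with RLE and 194 without the 3 libraries.

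The replicate numbers do not pair the libraries: over 28 pairs of populations the correlation of same-numbered deviations had a median of 0.0233, and 4 exceeded 0.1. A fit with the replicate block called 365, 321, 226, 70, 283 and 442 features in the first 6 of these tests and changed no call of a member. Snora75 had 16 to 174 counts a library; whether depth sets its outcome was not tested.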
